A study of Mus musculus with 6 samples.

Results

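The type I interferon-induced genes described here are Ifi27, Ifit1, Ifit3, Isg15, Irf7, Stat2, Rsad2, Bst2 and Xaf1. They were taken by gene name from the table of 54532 mouse genes, and all 9 were found once. RNA came from the myocardium of hypertrophic hearts of wild-type C57BL/6 mice aged 18 weeks, in 2 groups of 3 libraries. The control group had received AAV9-EGFP, an adeno-associated virus of serotype 9 carrying a fluorescent protein. The TuD group had received AAV9-anti-miR-199a TuDs, the same kind of vector carrying tough decoys, hairpin RNAs with binding sites for a microRNA, which they sequester. Every heart had therefore received an AAV9 vector, and the control group shows the level under a vector, not that of an uninjected heart. The labels do not state how hypertrophy was induced, which promoter drives the decoys, the dose, or whether each library is a separate animal, so each p-value measures the spread between these samples.

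Type I interferons are secreted proteins that bind a receptor of the subunits Ifnar1 and Ifnar2. The kinases Jak1 and Tyk2 then activate Stat2, which joins Irf9 in the factor ISGF3 and binds a DNA element, the interferon-stimulated response element, in front of the induced genes. The products of those genes block steps of virus growth, and Irf7 and Stat2 also feed the response itself. Cells can start the response when sensors detect foreign or misplaced nucleic acids, and many of its genes have a basal level in healthy tissue.

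The element was looked for in the stretch of 250 bases before to 50 bases after the annotated start (RefSeq, GRCm38.p6). This sequence was at hand for 8 of the 9 genes. It was missing for Ifi27, so the promoter of that gene was not searched. The letters searched were GAAA, any 2 bases and GAAA on both strands, and matches that overlap were counted separately. A match was present in 6 of the 8 promoters, those of Ifit1, Ifit3, Isg15, Stat2, Rsad2 and Bst2, and in 3.43% of all 32817 promoters of the same length. The promoters of Irf7 and Xaf1 held none of these letters. Below are the promoters of Rsad2, which was higher in the TuD group, and of Isg15, Ifit1 and Ifit3, which did not pass the test, so that they can be compared. Each is written 5′ to 3′ on the strand of its gene, with the matched letters in capitals.
Rsad2, chr12:26456403-26456702, minus strand: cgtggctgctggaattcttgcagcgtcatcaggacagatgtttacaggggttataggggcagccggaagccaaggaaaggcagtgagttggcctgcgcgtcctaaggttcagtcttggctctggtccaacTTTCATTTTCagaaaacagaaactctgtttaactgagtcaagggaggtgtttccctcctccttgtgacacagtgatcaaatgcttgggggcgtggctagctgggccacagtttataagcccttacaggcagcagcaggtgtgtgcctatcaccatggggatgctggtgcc
Isg15, chr4:156200769-156201068, minus strand: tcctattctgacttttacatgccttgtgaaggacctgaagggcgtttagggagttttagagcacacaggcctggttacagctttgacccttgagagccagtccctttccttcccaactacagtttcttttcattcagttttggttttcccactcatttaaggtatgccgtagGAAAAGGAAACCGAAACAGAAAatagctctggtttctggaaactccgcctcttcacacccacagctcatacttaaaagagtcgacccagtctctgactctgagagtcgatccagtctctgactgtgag
Ifit1, chr19:34640639-34640938, plus strand: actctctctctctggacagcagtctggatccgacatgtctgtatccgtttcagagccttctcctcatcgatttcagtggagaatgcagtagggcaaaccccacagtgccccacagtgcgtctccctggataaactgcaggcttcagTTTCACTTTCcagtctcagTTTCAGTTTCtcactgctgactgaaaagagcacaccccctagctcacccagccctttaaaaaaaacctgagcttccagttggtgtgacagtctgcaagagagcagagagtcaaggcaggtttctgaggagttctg
Ifit3, chr19:34583279-34583578, plus strand: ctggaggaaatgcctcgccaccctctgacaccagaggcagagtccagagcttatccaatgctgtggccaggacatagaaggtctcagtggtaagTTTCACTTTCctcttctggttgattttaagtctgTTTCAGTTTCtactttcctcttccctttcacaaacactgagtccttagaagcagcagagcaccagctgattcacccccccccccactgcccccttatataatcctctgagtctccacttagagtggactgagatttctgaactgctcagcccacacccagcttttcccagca
The Rsad2 match lay 120 bases before the start. Isg15 had 3 overlapping matches, the first 78 bases before its start. Ifit1 had matches at 104 and 85 bases and Ifit3 at 156 and 122 bases before the start. A gamma-activated site, searched as TTC, any 3 bases and GAA on both strands, was found in 1 of the 8 promoters, that of Bst2, and in 8.29% of all promoters.

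The decoys are named for miR-199a, whose 2 mature arms are shown with the seed, bases 2 to 8, in capitals (RefSeq, GRCm38.p6).
mmu-miR-199a-5p: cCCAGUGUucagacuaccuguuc
mmu-miR-199a-3p: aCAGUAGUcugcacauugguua
Sites of 7 bases that pair with a seed were searched in the longest annotated 3′ untranslated region of each gene (GENCODE M21). Of the 9 genes, Stat2 held a site for the 5p arm, gtcagaacagACACTGGccata with the paired bases in capitals, and no other gene of the 9 held a site for either arm. Among 9552 tested genes with such a region, 25.1% held a site for the 5p arm and 14.8% one for the 3p arm.

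Several facts of the libraries bear on the values. Reads were recovered from the deposited FPKM (fragments counted on a gene, scaled to its length and to a library size). They came to 18.0 to 18.2 M per control library and 15.2 to 16.7 M per TuD library. These sums were 0.941 to 0.959 of the library size that the FPKM imply in the controls and 0.992 to 1.06 in the TuD group. The deposited FPKM therefore already hold a scaling between libraries that differs from these sums. Levels are given as FPKM divided by a size factor for each library, called normalised FPKM. Cardiomyocyte markers summed to 27818 to 29341 normalised FPKM in the controls and 30882 to 37512 in the TuD group. The summed FPKM of 4 Y-linked genes was 8.32 to 9.59 in the controls and 12.5 in TuD replicate 3, but 0.0254 and 0.00711 in TuD replicates 1 and 2. The labels do not give the sex of the animals, so a difference in sex between the groups cannot be told apart from the treatment in those libraries. TuD replicate 3 also stood apart in 6 neutrophil markers, at 166 against 1.12 to 5.68 in the other libraries, and in Igkc, an immunoglobulin light chain gene, at 398 against 3.09 to 5.99. Each of the 6 neutrophil markers was highest in that library, whereas none of the 5 B cell markers other than Igkc was. In bulk tissue, fewer cells of a type and less RNA per cell cannot be told apart.

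**Figure D1:**
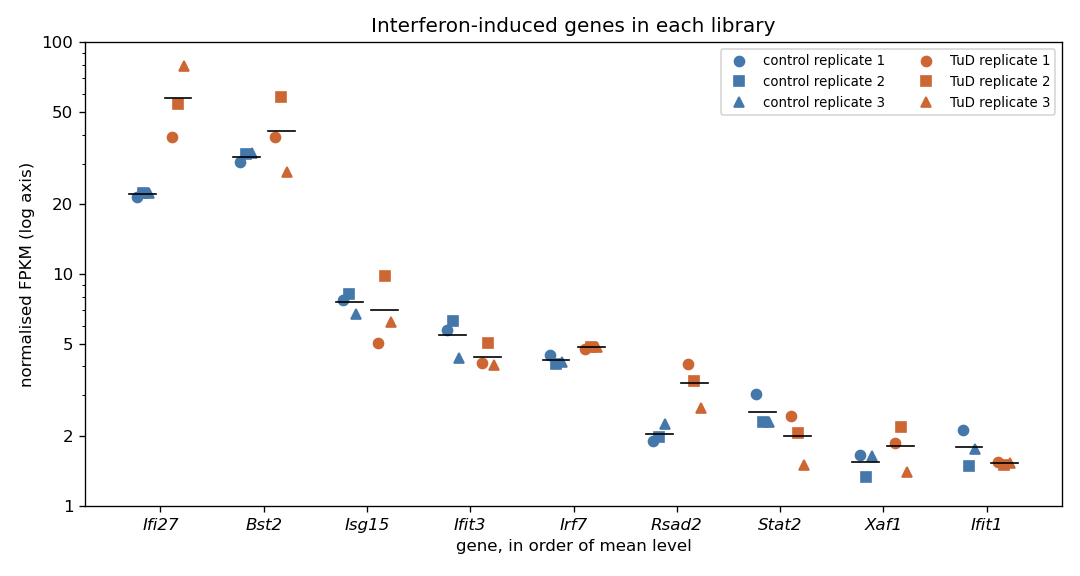
Normalised FPKM of the 9 interferon-induced genes in each library on a log axis, with controls in blue, TuD libraries in orange, a marker shape for each replicate and the group mean as a line. Ifi27 lies at 21.5 to 22.5 in the controls and 38.9 to 79.3 in the TuD group, whereas for most other genes the groups overlap.

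The comparison of the groups asked whether hearts with the decoys differ from control hearts in these transcripts. The genes did not move together. Ifi27 rose 2.60-fold and Rsad2 rose 1.66-fold in the TuD group, as ratios of the group means. No gene fell, and the other 7 did not pass. The test was limma on log2(normalised FPKM + 0.5) with p-values adjusted over all 10460 genes tested and a threshold of 0.05. Of all tested genes 29.3% passed, 15.0% as higher and 14.3% as lower, so 2 calls among 9 genes lie near the background share. All 9 genes passed the filter on low values in each of the 6 libraries. Their median log2 fold change (TuD minus control) was +0.17, against +0.0095 over all tested genes. After rescaling to TPM (values summing to the same total in each library), where the median over all tested genes was -0.36, 1 of the 9 genes was higher (Ifi27) and 3 were lower (Ifit1, Ifit3 and Stat2). The split over all tested genes was then 438 higher and 4202 lower, against 1565 and 1498.

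Ifi27, whose human counterpart is among the genes most responsive to interferon alpha, encodes a small hydrophobic membrane protein (ENSMUSG00000064215, chromosome 12, 103434211 to 103440239 in mm10, plus strand). Its level was 21.5, 22.5 and 22.4 normalised FPKM in control replicates 1, 2 and 3 and 38.9, 54.3 and 79.3 in TuD replicates 1, 2 and 3. Every TuD library lay above every control, and the controls were close to each other while the TuD libraries were spread widely. The means were 22.1 ± 0.569 and 57.5 ± 20.4 normalised FPKM (SD, n = 3 per group), a log2 fold change of +1.30 ± 0.22 (SE, adjusted p = 0.00616). The values rest on 594 to 651 reads per control library and 871 to 1935 per TuD library. The gene stayed past the threshold under all 19 alternatives, with log2 fold changes of +0.92 to +1.82 and adjusted p-values of 0.00233 to 0.0293. The largest, +1.82, came with Y-linked transcripts as a covariate, an estimate that rests on TuD replicate 3. Ifi27 was the highest in that library, which had the high neutrophil markers and Igkc. Without that library Ifi27 was still higher in the TuD group (+1.04, adjusted p = 0.00298).

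Macrophage markers moved in part with Ifi27. Over 11 markers the sum was 274, 337 and 288 normalised FPKM in control replicates 1, 2 and 3 and 283, 422 and 563 in TuD replicates 1, 2 and 3, so the groups overlapped. None of the 10 tested macrophage markers passed the test. Endothelial markers summed to 268 to 351 in the controls and 275 to 419 in the TuD group. The sum of 8 fibroblast markers did not overlap between the groups. It was 174 to 185 in the controls and 196, 237 and 248 in TuD replicates 1, 2 and 3. That order of the TuD libraries, also the order of Ifi27, came from Dcn alone (74.4, 86.5 and 129). Within the TuD group Lum, Dpt, Tcf21, Col1a1 and Col1a2 were each highest in replicate 2. Of all libraries, Col1a1 and Col1a2 were highest in control replicate 1 (26.8 and 15.1). Of the 8 fibroblast markers Tcf21, Lum and Dpt rose, Col1a2 fell and 4 did not pass. The cardiomyocyte sum, given above, did not overlap either, with 4 of 9 markers higher and none lower. Over all tested genes 15.0% were higher and 14.3% lower. The part of these cell types in the result was not tested.

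Rsad2 encodes viperin, a radical enzyme that makes a nucleotide which stops viral polymerases (ENSMUSG00000020641, chromosome 12, 26442746 to 26456452, minus strand). Its level was 1.91, 1.99 and 2.26 normalised FPKM in the controls and 4.11, 3.46 and 2.65 in TuD replicates 1, 2 and 3. The groups did not overlap, and TuD replicate 3, which had the highest Ifi27, had the lowest Rsad2 of its group. The means were 2.05 ± 0.184 and 3.41 ± 0.734 (SD, n = 3 per group), a log2 fold change of +0.60 ± 0.16 (SE, adjusted p = 0.0250). This call was fragile. It ended without any 1 of control replicates 1, 2 and 3 and TuD replicates 1 and 2 (adjusted p = 0.0731, 0.0796, 0.0505, 0.0731 and 0.0646). The log2 fold change of Rsad2 was then +0.47 to +0.66. The call also ended after rescaling to TPM (+0.30, 0.160), without a filter (0.0776) and with Y-linked transcripts as a covariate (+0.31, 0.260). The covariate estimate rests on TuD replicate 3. Over all tested genes 1565 were higher in the reported fit. This became 878 to 1111 when 1 of these libraries was left out, 1010 without a filter and 651 with the covariate. Cmpk2, the mitochondrial nucleotide kinase gene that neighbours Rsad2 and is also interferon-induced, measured 2.45 ± 0.435 and 2.28 ± 0.521 normalised FPKM (SD, n = 3 per group, adjusted p = 0.721), a gene chosen after its values were seen.

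Stat2 and Irf7 carry the signal and amplify it. Stat2, the subunit of ISGF3 that brings the activation domain (ENSMUSG00000040033, chromosome 10, 128270559 to 128292849, plus strand), measured 3.06, 2.31 and 2.31 normalised FPKM in the controls and 2.46, 2.07 and 1.51 in the TuD libraries. The groups overlapped, and the log2 fold change of -0.29 had a 95% interval of -0.69 to +0.11 (adjusted p = 0.233). Irf7, the factor that drives interferon alpha genes (ENSMUSG00000025498, chromosome 7, 141262706 to 141266481, minus strand), measured 4.49, 4.09 and 4.17 in the controls and 4.76, 4.87 and 4.87 in the TuD libraries. All TuD values lay above all controls, as they did for 3 of the 9 genes; over all tested genes 47.9% had groups that did not overlap, 23.5% with the TuD group above and 24.4% with it below. The difference of +0.17 on the log2 scale did not pass (95% interval -0.061 to +0.40, adjusted p = 0.230). Irf7 overlaps Phrf1 on the opposite strand, a gene at 2.60 to 4.22 normalised FPKM, and the strand setting of the counting is not given in the sources used here.

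Ifit1 and Ifit3 lie close together on chromosome 19 and encode proteins with tetratricopeptide repeats. Ifit1 binds foreign RNA by its cap (ENSMUSG00000034459, 34640871 to 34650009, plus strand), and its level was 2.13, 1.49 and 1.76 normalised FPKM in the controls and 1.56, 1.51 and 1.54 in the TuD libraries. The TuD libraries were nearly alike and lay within the range of the controls. The log2 fold change was -0.16, with a 95% interval of -0.49 to +0.16 (adjusted p = 0.403). Ifit3, which in human cells binds and stabilises IFIT1 (ENSMUSG00000074896, 34583531 to 34588731, plus strand), measured 5.74, 6.30 and 4.34 in the controls and 4.13, 5.03 and 4.06 in the TuD libraries. The groups overlapped through control replicate 3 (log2 fold change -0.27, 95% interval -0.62 to +0.081, adjusted p = 0.211). Ifit3 passed as lower after a correction for gene length (-0.49, adjusted p = 0.0450) and after rescaling to TPM (-0.66, 0.0147). Its level is uncertain because 51.2% of the 50-base windows of its longest transcript also occur in transcripts of its copy Ifit3b. Reads from such windows match both genes, so they could be lost or counted on either.

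Isg15 and Bst2 act outside RNA binding. Isg15, a ubiquitin-like protein that is joined to other proteins (ENSMUSG00000035692, chromosome 4, 156199424 to 156200818, minus strand), measured 7.78, 8.24 and 6.75 normalised FPKM in the controls and 5.03, 9.79 and 6.20 in TuD replicates 1, 2 and 3. The lowest and the highest of the 6 values were both TuD libraries, and the log2 fold change was -0.15 (95% interval -0.64 to +0.34, adjusted p = 0.617). With the correction for gene length Isg15 passed as lower (-0.61, adjusted p = 0.0455). Bst2 encodes tetherin, which holds budding viruses at the cell surface (ENSMUSG00000046718, chromosome 8, 71534255 to 71537456, minus strand). It measured 30.3, 33.0 and 33.3 in the controls and 39.2, 58.3 and 27.5 in TuD replicates 1, 2 and 3. TuD replicates 1 and 2 lay above the controls and TuD replicate 3 below them, with a log2 fold change of +0.30 (95% interval -0.24 to +0.84, adjusted p = 0.357). Without TuD replicate 3 Bst2 passed as higher (+0.56, adjusted p = 0.0348), whereas the Y-linked covariate, which rests on that library, turned its sign (-0.22, adjusted p = 0.498). Bst2 is also a marker of plasmacytoid dendritic cells, and of the 5 other markers listed for them Siglech was at 0 to 0.0711 normalised FPKM and Ccr9 at 0 to 0.00674. Ly6d and Irf8 were highest in TuD replicate 2, as Bst2 was, at 0.744 (8 reads) and 1.54, against 0 to 0.283 and 0.901 to 1.47 in the other libraries. Tcf4 lay at 1.04 to 1.70, highest in TuD replicate 1. The part of these cells in the Bst2 values was not tested.

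Xaf1 encodes a zinc finger protein that binds the apoptosis inhibitor XIAP (ENSMUSG00000040483, chromosome 11, 72301629 to 72313733, plus strand). It measured 1.66, 1.34 and 1.64 normalised FPKM in the controls and 1.87, 2.20 and 1.40 in the TuD libraries, with TuD replicate 3 inside the range of the controls. The log2 fold change was +0.17 (95% interval -0.20 to +0.54, adjusted p = 0.450).

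**Figure D2:**
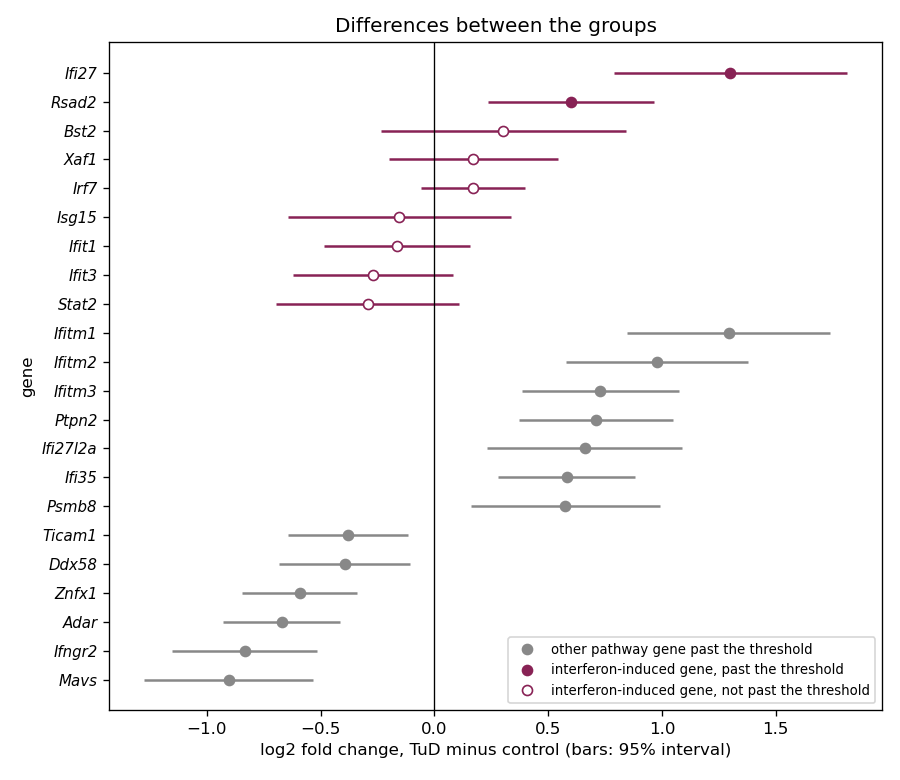
Log2 fold change (TuD minus control) with its 95% interval for the 9 genes, in purple, and for the 13 other interferon pathway genes past the threshold, in grey; open circles did not pass. Ifi27 and Rsad2 lie to the right of 0 with their intervals, and the intervals of the other 7 genes include 0.

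The spread within the TuD group differed between the genes. The coefficient of variation (SD over mean) of the normalised FPKM in the TuD group was 35.4% for Ifi27, 37.3% for Bst2 and 35.4% for Isg15, but 1.36% for Irf7 and 1.48% for Ifit1. In the controls it ran from 2.57% for Ifi27 to 18.4% for Ifit3. TuD replicate 2 held the highest value of its group for 5 of the 9 genes and TuD replicate 3 the lowest for 5. With 3 libraries per group these counts describe the libraries only.

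By level, the genes fell in the order Ifi27, Bst2, Isg15, Ifit3, Irf7, Rsad2, Stat2, Xaf1 and Ifit1 on the mean normalised FPKM of the 6 libraries. Ifi27 and Bst2 stood above 89.4% and 88.7% of the tested genes, and Ifit1 above 15.1%. Neighbours were separated in all 6 libraries for Bst2 over Isg15, Isg15 over Ifit3 and Irf7 over Rsad2. The order of Ifi27 and Bst2 rested on TuD replicate 3, the 1 library of 6 in which Ifi27 was higher. Rsad2 lay above Stat2 in 3 libraries of 6, the TuD libraries.

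The summed level of the 9 genes was 78.6, 81.2 and 78.9 normalised FPKM in the controls and 102, 142 and 129 in the TuD libraries. Ifi27 and Bst2 supply most of this sum. Ifi27 was higher in every TuD library than in the controls, whereas Bst2 was lowest of the 6 libraries in TuD replicate 3 (27.5). Outside the gene lists, the protein-coding genes whose log2 level followed this sum most closely over the 6 libraries were Leprot (r = 0.994), Zfp560 (0.993), Akr1b8 (0.992), Trmu (0.992) and Chmp2a (0.991). These correlations are a description, since the libraries share the 2 groups and 7.90% of all tested genes reached an r above 0.9.

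**Figure D3:**
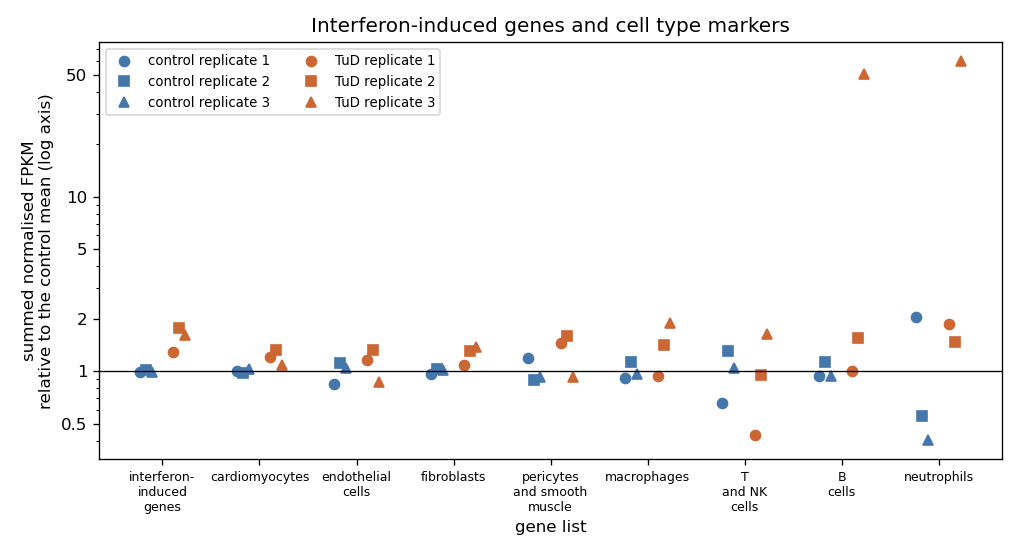
Summed normalised FPKM of the 9 interferon-induced genes and of markers of 8 groups of cell types in each library, divided by the mean of the controls, on a log axis. The sum of the 9 genes is higher in every TuD library than in the controls. Ifi27 and Bst2 supply most of it, and Bst2 by itself overlaps between the groups. The fibroblast sum (196 to 248 against 174 to 185) and the cardiomyocyte sum (30882 to 37512 against 27818 to 29341) are also higher in every TuD library. Macrophage and endothelial sums overlap between the groups, and the neutrophil sum and the B cell sum, the latter through Igkc, are far higher in TuD replicate 3 alone.

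The other genes of the interferon pathway were described by lists of 131 genes, of which 86 were tested. Of these, 7 rose and 6 fell, and the other 73 were not past the threshold, while 29.3% of all tested genes were. The median log2 fold change of the 86 was +0.025. The response element was found in at least 1 promoter of 38 of the 103 pathway genes with a promoter sequence (36.9%). This share counts genes, some with several promoters, whereas the 3.43% given above counts single promoters. By list it ran from 0 of 10 receptors and signal transducers to 9 of 16 interferon-gamma and GTPase genes, with 5 of 12 interferon genes.

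The interferon genes that were looked for had few or no reads at this depth. Of 12 interferon genes (Ifna1, Ifna2, Ifna4, Ifna5, Ifnab, Ifnb1, Ifne, Ifnk, Ifnz, Ifnl2, Ifnl3 and Ifng), 11 had no read in any library, and Ifnz had 4 reads, all in controls. For Ifnb1, interferon beta, 3 reads would equal 0.202 to 0.277 normalised FPKM in these libraries, which is the level that a count of 0 allows, for counting error only.

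Among 21 sensors of nucleic acids and their adaptors, 12 were tested, of which 4 fell and none rose (median log2 fold change -0.076). Over all tested genes 14.3% fell and 15.0% rose. Mavs, the mitochondrial adaptor of the RNA sensors, was 32.4, 49.5 and 36.3 normalised FPKM in the controls and 22.7, 19.6 and 19.3 in the TuD libraries (log2 fold change -0.90 ± 0.16 SE, adjusted p = 0.00684). Adar, which edits double-stranded RNA and keeps it from the sensors, had means of 2.84 ± 0.105 and 1.60 ± 0.0833 (SD, n = 3 each) in control and TuD libraries and fell by 0.67 on the log2 scale (adjusted p = 0.00574). Ticam1, the adaptor of Tlr3, fell by 0.38 on the log2 scale (adjusted p = 0.0390) and Ddx58, which encodes the RNA sensor RIG-I, by 0.39 (adjusted p = 0.0464). The calls of Ticam1 and Ddx58 ended without any 1 of the 6 libraries (adjusted p = 0.0536 to 0.133 and 0.0676 to 0.131), and with the Y-linked covariate (0.0722 and 0.0763), and that of Ddx58 with the length correction (0.161). Over all tested genes 1498 were lower in the reported fit, 718 to 1620 on leaving out 1 library and 529 with the covariate. Mavs passed under all 19 alternatives and Adar under the 18 in which it was tested.

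Among 10 receptor subunits and signal transducers, all tested, 1 fell and none rose (median -0.061), against 14.3% and 15.0% of all tested genes. Ifngr2, a receptor subunit for interferon gamma, fell from 46.4 ± 7.32 to 25.7 ± 2.80 (SD, n = 3 per group, -0.83, adjusted p = 0.00574), under all 19 alternatives. The type I receptor genes Ifnar1 and Ifnar2 had log2 fold changes of -0.049 and +0.031 (adjusted p = 0.809 and 0.828), and Irf9 one of -0.15 (0.308); the choice of these 3 genes followed a look at their values.

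Of 12 negative regulators 9 were tested, and 1 rose (median +0.067), against 15.0% of all tested genes. It was Ptpn2, a phosphatase that acts on Jak1, at 1.58 ± 0.277 and 2.90 ± 0.387 normalised FPKM (SD, n = 3 per group, +0.71, adjusted p = 0.0109). Its call ended after rescaling to TPM (+0.45, 0.0763). Usp18, the protease that removes Isg15 and an induced gene itself, was 1.75, 1.98 and 1.73 in the controls and 2.07, 2.08 and 4.61 in TuD replicates 1, 2 and 3 (adjusted p = 0.185), a gene chosen after its values were seen. Its high value stood in the library with the high neutrophil markers and Igkc.

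Of 54 other induced effectors 38 were tested, of which 5 rose and 1 fell (median +0.16), against 15.0% and 14.3% of all tested genes. Ifitm1, Ifitm2 and Ifitm3, membrane proteins that hinder virus fusion, each rose. Ifitm1 was 3.73, 3.29 and 2.79 normalised FPKM in the controls and 6.53, 8.72 and 11.4 in the TuD libraries (+1.29 ± 0.19 SE, adjusted p = 0.00418). Ifitm2 was 45.5, 64.2 and 53.0 in the controls and 95.8, 133 and 94.5 in the TuD libraries (+0.98, adjusted p = 0.00669). Ifitm3 was 148, 145 and 136 in the controls and 217, 298 and 207 in the TuD libraries (+0.73, adjusted p = 0.0106). Each had no overlap between the groups, and Ifitm1 passed under all 19 alternatives. The call of Ifitm2 ended with the Y-linked covariate (0.0619), and that of Ifitm3 with the covariate (0.102), with the length correction (+0.25, 0.128) and after rescaling to TPM (+0.34, 0.0987). Of their longest transcripts, 3.30% or less of the 50-base windows were shared with another of the 3 genes.

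Ifi27l2a, a relative of Ifi27 that starts at 103442167 beside it on chromosome 12, and Ifi35, a partner of other induced proteins, also rose. Ifi27l2a was 46.9, 55.3 and 45.2 normalised FPKM in the controls and 73.5, 103 and 61.7 in the TuD libraries (+0.66, adjusted p = 0.0315). Unlike Ifi27 it was highest in TuD replicate 2, and no 50-base window of Ifi27 occurs in it. Its call ended without any 1 of control replicates 1, 2 and 3 or TuD replicate 1 (0.0566 to 0.0977), with the length correction (+0.10, 0.630) and after rescaling to TPM (+0.28, 0.244). Ifi35 had a log2 fold change of +0.58 (adjusted p = 0.0145; 0.0580 without control replicate 3, 0.0645 with the length correction and 0.298 after rescaling to TPM). Znfx1, a helicase that binds viral RNA, fell from 9.23 ± 0.967 to 5.94 ± 0.228 (SD, n = 3 per group, -0.59, adjusted p = 0.00772), and overlaps the noncoding gene Zfas1 on the other strand, which stood at 0.847 to 1.20 in the controls and 2.31 to 2.41 in the TuD libraries. The choice of Ifi27l2a and Ifi35, which fall outside the rule for naming, followed a look at their values. With the Y-linked covariate, the calls of Ifi27l2a, Ifi35 and Znfx1 ended (adjusted p = 0.311, 0.0990 and 0.0584). Over all tested genes 651 were then higher and 529 lower, against 1565 and 1498.

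Of 22 genes linked to interferon gamma, immunity-related GTPases and antigen processing, 17 were tested. Of these 1 rose (median +0.023), against 15.0% of all tested genes. It was Psmb8, an immunoproteasome subunit, at 5.79, 5.51 and 5.17 normalised FPKM in the controls and 7.38, 11.6 and 6.96 in the TuD libraries (+0.58, adjusted p = 0.0458). Its call ended on leaving out any library other than TuD replicate 3 (0.0585 to 0.125), with the Y-linked covariate (+0.32, 0.365), with the length correction (0.0602), on the deposited FPKM without size factors and with eBayes without a trend (0.0510 each) and after rescaling to TPM (+0.22, 0.336). Without a filter on low values the calls of Psmb8, Ifi27l2a, Ticam1 and Ddx58 ended too (adjusted p = 0.123, 0.0945, 0.0781 and 0.109). Over all tested genes 1565 were higher in the reported fit. This became 878 to 1111 on leaving out any library other than TuD replicate 3, 651 with the covariate and 1010 without a filter. Macrophage and neutrophil markers and Igkc, given above, were highest in TuD replicate 3, fibroblast and cardiomyocyte sums were higher in every TuD library than in the controls, and their part in the changes of these lists was not tested.

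**Figure D4:**
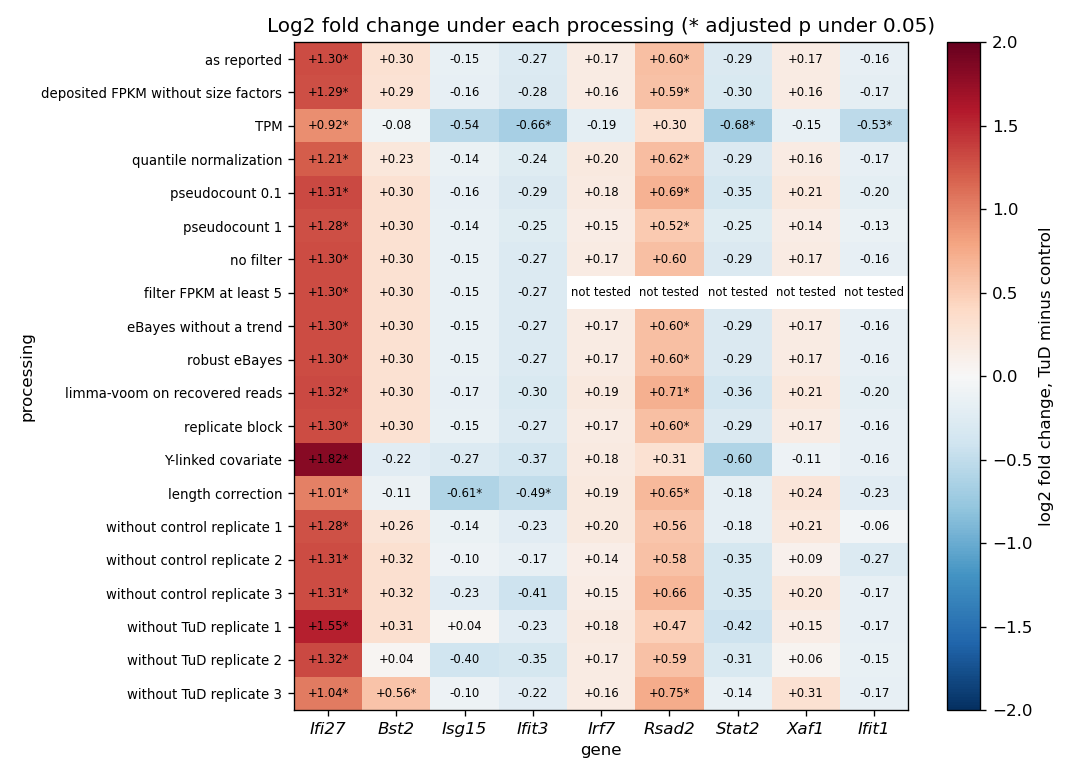
Log2 fold change (TuD minus control) of the 9 genes, in columns, under the reported processing and 19 alternatives, in rows, with an asterisk for an adjusted p under 0.05 and colour from blue (lower) to red (higher). Ifi27 is red with an asterisk in all 19 alternatives, Rsad2 loses the asterisk in 8 rows and is not tested in 1, and Bst2 changes sign in 3.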

How the data were processed

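RNA from mouse myocardium was sequenced in 6 libraries, 3 per group, and grouped by the labels. The submitters' processing notes name HISAT2 2.0.5, featureCounts 1.5.0-p3 and the build mm10; annotation and strand setting are not given in the sources used here. The authors deposited FPKM and gene lengths for 54532 genes. Multiplied by length, 100% of the FPKM above 0 were whole numbers of reads (tolerance 0.05 read), which sum to 15.2 to 18.2 M per library.

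FPKM was divided by median-of-ratios size factors over genes with an FPKM of at least 1 in all libraries (0.985 to 1.02). The 10460 genes that reached FPKM 1 in 3 or more libraries before scaling were tested with limma (lmFit, eBayes with a trend; two-sided) on log2(normalised FPKM + 0.5), with Benjamini-Hochberg adjustment over all of them and a threshold of 0.05. The 9 genes and the lists were chosen with earlier results of these data known, and 1 pathway gene is not reported here. The rule for named genes took the 9 genes, up to 4 genes past the threshold by p-value from each pathway list, and the 12 listed interferon genes. It also took the 5 protein-coding genes outside the lists most correlated with the summed level of the 9. Alternatives were 3 other scalings, 2 pseudocounts (0.1 and 1), 2 filters, 2 variance models, limma-voom on recovered reads with TMM factors, the replicate number as a block, a covariate for Y-linked transcripts, removal of each library's trend with gene length (lowess, span 0.3) and leaving out each library. The pipeline was tested on simulated data. Promoters and miRNAs are RefSeq's on GRCm38.p6; 3′ untranslated regions and transcripts are from GENCODE M21. Tools were R 4.3.3, limma 3.58.1, Python 3.11.15, numpy 2.4.6, pandas 2.3.3 and matplotlib 3.10.9.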

Additional observations from a re-analysis of the deposited data

How the results depend on the processing

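Of 166 values of the 9 genes under the alternatives, 145 kept their direction and their side of the threshold, 8 lost the call (all of Rsad2), 6 gained one and 7 turned sign, none of them past the threshold. Those that turned were Bst2 after rescaling to TPM (-0.082), with the Y-linked covariate (-0.22) and with the length correction (-0.11), Xaf1 after rescaling to TPM (-0.15) and with the covariate (-0.11), Irf7 after rescaling to TPM (-0.19), and Isg15 without TuD replicate 1 (+0.043, the highest of -0.40 to +0.043 when each library was left out). The number of the 9 genes that were higher (2) became 1 after rescaling to TPM, with the covariate, with no filter and at a minimum FPKM of 5, where Rsad2 was not tested, and ran from 1 to 3 when each library was left out. The number lower (0; 0 also by limma-voom, and none had an unadjusted p under 0.05) became 3 after rescaling to TPM and 2 with the length correction. Of the other pathway genes, 7 were higher, but 2 after rescaling to TPM, 4 with the length correction and 4 to 12 when each library was left out; 6 were lower, but 24 after rescaling to TPM and 3 with the covariate. Calls over all tested genes, 1565 higher and 1498 lower, became 651 and 529 with the covariate and 1010 and 956 without a filter. Leaving out each library gave 878 to 1638 higher and 718 to 1620 lower. With the covariate, the difference between the groups rests on TuD replicate 3 for every gene. TPM moves every gene by about the same amount, -0.36 in the median, and the cause of the other moves was not tested. The replicate numbers did not pair the libraries: deviations of same-numbered libraries correlated at -0.0554 to 0.0882, and not every library correlated best with its own number. With the replicate block, 2 of the 9 genes were higher, as without it, and 7 other pathway genes were higher and 4 lower, the calls of Ticam1 and Ddx58 having ended (adjusted p = 0.0674 and 0.0787). At these depths 3 reads over 2 kilobases equal 0.0759 to 0.104 normalised FPKM. The interferon genes are shorter, so for them 3 reads equal more. The values are 0.104 to 0.142 for Ifnz, the longest, and 0.271 to 0.370 for Ifna4, the shortest. This limits what can be said of the interferon genes.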
